A study of Citrus maxima and Citrus sinensis with 4 samples.

Results

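The leaf miRNA response of *C. grandis* (sour pummelo, given as Citrus maxima in the organism label) to excess boron (B) was read from 2 small RNA libraries. The B-toxic library came from seedlings supplied with 400 μM boric acid and the control library from seedlings supplied with 10 μM, both for 15 weeks. Per the labels, all seedlings were transplanted at 5 weeks of age and the treatments began 10 weeks later, whereas the methods of the study give a younger age at that point. Leaves were taken from the same height on the plant, and RNA of 5 replicates was mixed before each library was made, so that there was 1 library per condition and no replicate. Tests on the reads of 2 libraries compared these libraries, not the conditions, and intervals covered counting error only. The comparison used both *C. grandis* libraries of the 4 in the series and all 699 precursor loci listed by the authors. The table held only sequences that the authors listed as mature miRNAs, so that the leaf label was not checked against mRNA markers. Whether each listed sequence is a miRNA was not tested.

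The 699 loci carried 579 distinct mature sequences, of which 522 had at least 1 read in *C. grandis* and were tested. Each sequence was counted once, which gave 260084 mature reads in the B-toxic and 290550 in the control library. Values are given as reads and as RPM, reads per 1000000 mature reads of the library. Where a sequence had 0 reads, up to 3 reads were taken as possible, which is 11.5 RPM in B-toxic and 10.3 RPM in control leaves. The libraries were of similar richness, with a read of 482 sequences in B-toxic and 489 in control leaves. The 4 sequences with the most reads held 67.4% of the B-toxic and 64.9% of the control reads, so that most sequences were thinly covered.

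Plant miRNAs are cut from hairpin precursors by a Dicer-like enzyme and guide an Argonaute protein to mRNAs with a nearly complementary site, which are then cleaved or translated less. Most plant miRNAs are 21 nt long and start with U, a base preferred by AGO1. The 22 nt forms can start the production of secondary small RNAs from their targets, and small RNAs of 24 nt are mostly linked to DNA methylation. Boron is needed in small amounts to cross-link pectin in the cell wall, and in excess it injures leaves.

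The sequences with the largest differences, and those of the families on which the results turn, are shown 5′ to 3′ as the authors listed them, with bases 2 to 8 (the seed) in capitals. The first set was higher in the B-toxic library.

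ci-miRN13: cAGUUUUAaaauuuucucaga
ci-miRN24a: uCGCAGGGgagaugggaccaac
ci-miRN6: aGCAGAUGgugccauuucuuc
miR397a: uUAUUGAGugcagcguugau
miR395a: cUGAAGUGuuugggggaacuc
miR396g: gUUCAAGAaagcuguggaaaa

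The second set was lower in the B-toxic library.

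ci-miRN5: aAUCUGUUcggguuaaauuucggu
ci-miRN8: aGGAAUUGuguauuuuugaaaaag
ci-miRN2: aAAGGAUUuucuagaagaacgugu
ci-miRN4: aAGCUGGAcuuguggagagugugc
miR858b: cUCGUUGUcuguucgaccuug
miR2111a: uAAUCUGCauccugagguuug
miR473a: aCUCUCCCucaagggcuucuga
miR164a: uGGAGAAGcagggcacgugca

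The third set holds forms of 1 family that share a seed, and shows how little separates them in sequence. Ratios differed between the forms of miR167, and between miR160a and the leading form of miR160. Those of the 2 miR403 forms were alike.

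miR167, leading 22 nt form: uGAAGCUGccagcaugaucuga
miR167a, 22 nt form called lower: uGAAGCUGccagcaugaucuua
miR167, 20 nt form: uGAAGCUGccagcaugaucu
miR160, leading form: uGCCUGGCucccuguaugcuu
miR160a: uGCCUGGCucccuguaugccg
miR160, least abundant form: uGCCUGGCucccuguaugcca
miR403, leading form: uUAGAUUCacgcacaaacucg
miR403, minor form: uUAGAUUCacgcacaaacuug

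Of the 522 sequences tested, 36 (6.9%) were called different, which required an FDR below 0.01 (the Benjamini-Hochberg adjusted p of a two-sided Fisher's exact test) and a ratio of at least 2. Of these, 16 (3.07%) were higher and 20 (3.83%) were lower in the B-toxic library. Counted at every locus as listed, 45 loci (7.05%) of 638 were called. In bulk leaf RNA, fewer cells making a miRNA and less of it per cell cannot be told apart. The 16 higher sequences held 1273 reads (0.489%) in B-toxic and 339 reads (0.117%) in control leaves. The 20 lower sequences held 2124 reads (0.817%) in B-toxic and 6262 reads (2.16%) in control leaves. The rest of the reads, 98.7% in B-toxic and 97.7% in control leaves, belonged to sequences that were not called.

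Among the 264 sequences with at least 20 reads in both libraries together, the median log2 ratio of B-toxic over control was -0.12, with quartiles of -0.58 and 0.35. The ratio was within 2-fold for 216 of them (81.8%) and beyond it for 48 (18.2%). Of the 35 sequences with at least 1000 reads, 3 were called, namely miR858b, miR167a and miR164a, and all 3 were lower. That is 8.33% of the called sequences, beside 6.7% of all sequences tested that had as many reads. The balance of directions depended on the scaling. Relative to the total of mature reads, all log2 ratios shifted by 0.29 with the study's clean reads as library size, by 0.17 with TMM and by 0.17 with DESeq2's size factors. The calls were then 26 higher and 7 lower with clean reads, and 19 higher and 10 lower with either of the other scalings.

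**Figure D1:**
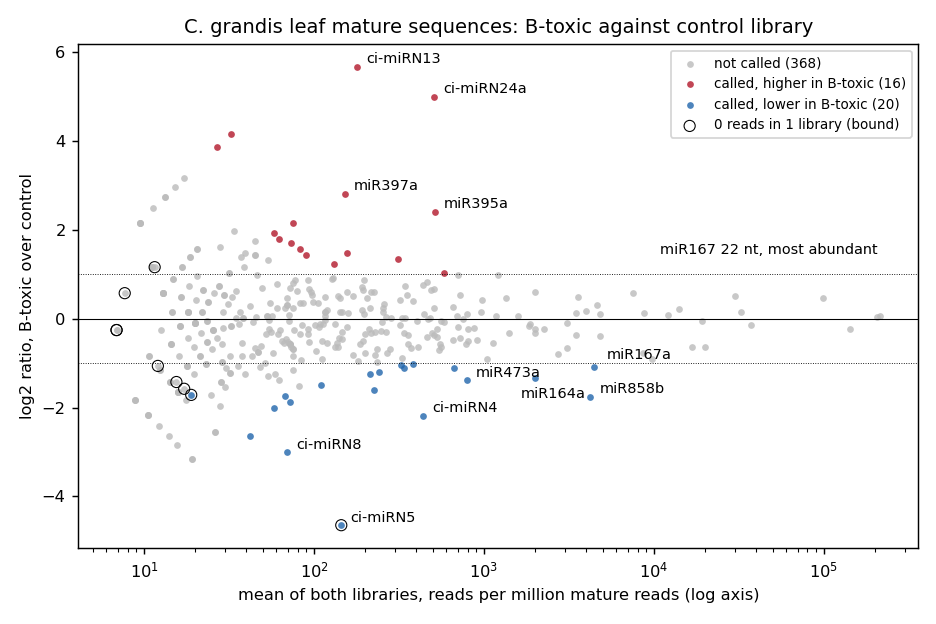
The log2 ratio of reads (B-toxic over control, vertical axis) is plotted against the mean RPM of both libraries (log axis) for each distinct sequence with more than 3 reads in a library, with 1 point per sequence. Red points are the 16 called higher, blue points the 20 called lower and grey points those not called. Circles mark a ratio set against 3 reads, and dotted lines mark a ratio of 2. Of the called points, miR858b, miR167a and miR164a lie farthest to the right.

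The most pronounced rises were in sequences without a homology label, which were nearly missing from the control library. Arms are given by position only, 5p before and 3p past the middle of the listed precursor, and were not read from the fold. ci-miRN13 (21 nt, 3p arm) had 91 reads (350 RPM) in B-toxic and 2 reads (6.88 RPM) in control leaves. Its log2 ratio was 5.67 (95% interval 3.77 to 8.73) with a Fisher's exact test FDR of 1.02e-25. ci-miRN24a (22 nt, 5p arm) had 256 reads (984 RPM) in B-toxic and 9 reads (31.0 RPM) in control leaves, a log2 ratio of 4.99 (4.04 to 6.14, FDR 1.04e-68). Both were far above the limit that a count of 0 allows in B-toxic leaves, whereas the control count of ci-miRN13 was below it.

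The precursors of these 2 miRNAs, with the mature sequence in capitals, were predicted to fold at -43.7 kcal/mol for ci-miRN13 and -61.3 kcal/mol for ci-miRN24a. They are shown because the counts of their mature strands differed most.

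ci-miRN13 precursor: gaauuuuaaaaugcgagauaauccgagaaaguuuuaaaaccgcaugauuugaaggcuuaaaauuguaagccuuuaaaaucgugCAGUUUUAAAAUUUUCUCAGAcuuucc
ci-miRN24a precursor: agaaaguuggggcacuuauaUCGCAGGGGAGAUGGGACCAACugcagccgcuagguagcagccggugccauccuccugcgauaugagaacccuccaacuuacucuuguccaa

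Over all 4 libraries of the series, the mature strand held 96 of 126 reads on the ci-miRN13 precursor and 289 of 385 on that of ci-miRN24a. The locus next in the authors' numbering to that of ci-miRN24a gave ci-miRN6, with 16 reads in B-toxic and 1 in control leaves (log2 ratio 4.16, 1.47 to 9.55, FDR 0.000758). The other unlabelled sequences that rose were ci-miRN20, ci-miRN14, ci-miRN12, ci-miRN31, ci-miRN27, ci-miRN19 and ci-miRN15, with log2 ratios of 1.04 to 3.86. ci-miRN20 rested on 13 reads in B-toxic and 1 in control leaves. Its mature strand made up 14 of 102 reads on its precursor, a small share beside the median of 85.9% over the 16 higher sequences.

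The labelled miRNAs with the largest rises were miR397a and miR395a, which are known from plant nutrition. miR397a guides the cleavage of laccase mRNAs and in other plants accumulates when copper is short. It had 69 reads (265 RPM) in B-toxic and 11 reads (37.9 RPM) in control leaves. Its log2 ratio was 2.81 (1.88 to 3.88, FDR 9.94e-12), a 7.01-fold rise. miR395a, which targets ATP sulfurylase and a sulfate transporter, had 224 reads (861 RPM) in B-toxic and 47 reads (162 RPM) in control leaves. This was a 5.32-fold rise (log2 ratio 2.41, 1.95 to 2.90, FDR 6.98e-32), listed with this sequence at 4 loci. The precursors of both are shown with the mature strand, past the middle of the listed precursor, in capitals. That of miR397a was predicted to fold at -25.9 kcal/mol, with 10 of 20 mature bases paired. That of miR395a was predicted to fold at -61 kcal/mol, with 20 of 21 paired.

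miR397a precursor: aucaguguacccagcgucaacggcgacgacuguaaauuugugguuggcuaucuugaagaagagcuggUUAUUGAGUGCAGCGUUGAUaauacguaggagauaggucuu
miR395a precursor: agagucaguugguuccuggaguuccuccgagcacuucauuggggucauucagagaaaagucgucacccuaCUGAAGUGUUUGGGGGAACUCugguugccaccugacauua

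The remaining labelled sequences that rose were miR396g (25 reads in B-toxic, 8 in control leaves), miR5559 (29 in B-toxic, 10 in control), miR863 (34 in B-toxic, 14 in control) and miR5521 (48 in B-toxic, 23 in control). Their log2 ratios lay between 1.22 and 1.80 and their FDR between 0.00563 and 0.00894. These were close to the limit of 0.01, and miR396g and miR863 had an FDR of 0.0104 by the two-sided Audic-Claverie test.

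The sequence with the widest fall was ci-miRN5 (24 nt, 5p arm), with 0 reads in B-toxic and 84 reads (289 RPM) in control leaves. Set against the 3 reads taken as possible at a count of 0, ci-miRN5 was 25.1-fold lower in B-toxic leaves (log2 ratio -4.65, FDR 2.04e-22). That ratio leaves out the counting error of the control reads. With it, the exact interval of the log2 ratio of ci-miRN5 ended at -4.32, a smaller fall. Its precursor, again with the mature strand in capitals, folded at -53 kcal/mol and carried 88 reads over all 4 libraries, 87 of them of the mature strand.

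ci-miRN5 precursor: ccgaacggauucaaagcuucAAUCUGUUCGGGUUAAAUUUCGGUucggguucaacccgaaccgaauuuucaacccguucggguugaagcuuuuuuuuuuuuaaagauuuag

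ci-miRN8 had 4 reads in B-toxic and 36 in control leaves (log2 ratio -3.01, -4.96 to -1.53, FDR 8.82e-06). ci-miRN2 had 3 reads in B-toxic and 21 in control leaves (log2 ratio -2.65, FDR 0.00528). ci-miRN4 had 41 reads (158 RPM) in B-toxic and 209 reads (719 RPM) in control leaves, a log2 ratio of -2.19 (-2.71 to -1.70, FDR 4.21e-23). All 4 of these falling sequences were 24 nt long. With 15 or fewer reads in the B-toxic library, ci-miRN29 (6 reads, 27 in control), ci-miRN32 (8 reads, 33 in control) and ci-miRN10 (15 reads, 47 in control) also fell. These were 24 nt long as well, as were 271 of all 522 sequences tested. Of the called sequences named so far, ci-miRN2, ci-miRN29 and ci-miRN32 were no longer called under any of the other 3 scalings, and ci-miRN10 was lost with clean reads as library size. Falls of similar size in 21 nt sequences were those of miR858b (501 reads, 1893 in control), miR2111a (8 reads, 30 in control) and ci-miRN7 (29 reads, 99 in control).

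The 9 labelled miRNAs that fell had between 11 and 2496 reads in both libraries together (median 374), and the 11 unlabelled ones between 24 and 250 (median 84). miR858b, which in Arabidopsis targets MYB transcription factors of the phenylpropanoid pathway, had 501 reads (1926 RPM) in B-toxic and 1893 reads (6515 RPM) in control leaves. It was 3.38-fold lower (log2 ratio -1.76, -1.90 to -1.62, FDR 8.94e-156). miR164a, a regulator of NAC transcription factors, had 295 reads (1134 RPM) in B-toxic and 829 reads (2853 RPM) in control leaves, a log2 ratio of -1.33 (-1.53 to -1.14, FDR 1.60e-45). miR473a had 114 reads (438 RPM) in B-toxic and 332 reads (1143 RPM) in control leaves, a log2 ratio of -1.38 (-1.70 to -1.07, FDR 2.21e-19). With an assumed coefficient of variation of 0.2 between replicates (edgeR's exact test), miR858b was still called, whereas miR164a and miR473a were not (FDR 0.082 each).

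The other labelled sequences that fell were miR2111a, miR5156, miR5785, miR7528, miR6232a and miR167a. miR5156 had 0 reads in B-toxic and 11 in control leaves, 3.28-fold lower when set against 3 reads (log2 ratio -1.71). The exact interval of its log2 ratio ended at -1.17, a smaller fall. The unlabelled ci-miRN7, ci-miRN18, ci-miRN25 and the sequence of scaffold_2_209091 fell as well, with log2 ratios of -1.61 to -1.03. Under TMM and DESeq2's size factors, miR167a, miR2111a, miR5156, miR6232a, ci-miRN18, ci-miRN25 and scaffold_2_209091 were not called, and with clean reads as library size miR5785 and miR7528 were lost in addition. scaffold_2_209091 was also lost when every locus was counted. Just inside the ratio limit were ci-miRN15 (log2 ratio 1.04) and scaffold_2_209091 (-1.03), and just outside it ci-miRN16 (0.98), ci-miRN30a (0.98) and 1 miR157 form (-0.97). Just outside the FDR limit was miR2622.1a (11 reads in B-toxic, 35 in control, FDR 0.0108).

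**Figure D2:**
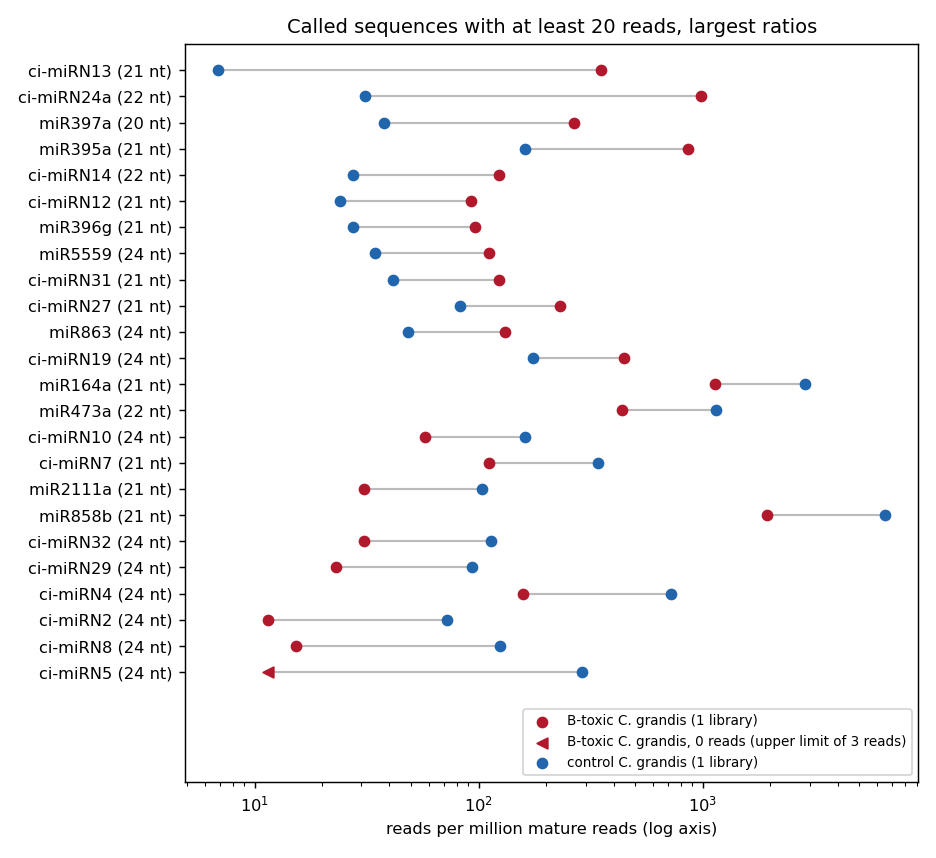
RPM (log axis) in the B-toxic (red) and control (blue) *C. grandis* library are plotted for the 12 higher and the 12 lower called sequences with the largest ratios and at least 20 reads, 1 library each, with no error bar because there were no replicates. The triangle is the limit of 3 reads for ci-miRN5, which had 0 reads in the B-toxic library. Of the 12 lower sequences, 7 are 24 nt long, beside 271 of all 522 sequences tested.

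The called sequences of the 2 directions were of different lengths. Of the 16 higher sequences, 3 were 24 nt and 13 were 18 to 22 nt long. Of the 20 lower sequences, 12 (60%) were 24 nt long, against 256 of the 486 sequences not called (52.7%). With TMM or DESeq2's size factors, 3 of 19 higher and 6 of 10 lower sequences were 24 nt long, and with clean reads 4 of 26 higher and 3 of 7 lower. The precursors also differed in folding energy, with a median of -48.05 kcal/mol for the higher, -30.15 for the lower and -29.2 for the sequences not called. Energies were not compared within a length or under the other scalings, so that this difference is not separate from that in length. The mature strand lay past the middle of the listed precursor (3p) in 11 of 16 higher and 10 of 20 lower sequences, beside 236 of the 486 not called. Of the labelled sequences 6 rose and 9 fell among 279, and of the unlabelled ones 10 rose and 11 fell among 243.

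By reads, the mature miRNAs of B-toxic leaves held a larger share of 22 nt and a smaller share of 21, 23 and 24 nt sequences. The 22 nt share was 17.6% (exact binomial 95% interval 17.5 to 17.8%) in B-toxic and 13.2% (13.0 to 13.3%) in control leaves, 4.45 points higher (4.26 to 4.64). The 21 nt share was 47.2% in B-toxic and 50.2% in control leaves, 2.99 points lower (the difference was -2.99, -3.25 to -2.72). The 24 nt share was 5.17% in B-toxic and 6.09% in control leaves (-0.93 points, -1.05 to -0.81), and the 23 nt share 0.777% in B-toxic and 1.37% in control leaves (-0.59 points). The 20 nt share, 27.8% in each library, differed by 0.029 points (-0.208 to 0.266).

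Single sequences carried most of the differences at 21, 22 and 23 nt. The leading 22 nt form of miR167 accounted for 3.23 of the 4.45 points, with 30040 reads in B-toxic and 24182 in control leaves. The unlabelled 22 nt sequence of scaffold_2_326556 accounted for 1.07 points, with 9235 reads in B-toxic and 7199 in control leaves. Without the leading miR167 form, a choice made once the values were known, the 22 nt difference was 1.57 points. For 21 nt, ath-miR165a (34103 reads in B-toxic, 45011 in control) contributed -2.38 points and the leading miR403 form -0.86, whereas the most abundant sequence, that of scaffold_2_271215, contributed 1.05. For 23 nt, ci-miRN3a (1772 reads in B-toxic, 3708 in control) contributed -0.59 points, as much as the whole class. For 24 nt, the sequence of scaffold_8_1263994 (1669 reads in B-toxic, 3164 in control) contributed -0.45 of the -0.93 points, and no other sequence contributed as much. When a sequence was counted at each of its loci, the 24 nt difference was 0.019 points.

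scaffold_2_326556, 22 nt: uCUUACCUaugccacccauucc
scaffold_2_271215, 21 nt: uUCUUAUUcagugacuguuua
scaffold_8_1263994, 24 nt: aUUGGUCGggugcaccaccucagc

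These 3 unlabelled sequences are shown because they moved the length shares, and none of them was called. By number, 11 of the 15 sequences of 22 nt with at least 20 reads had a positive log2 ratio (median 0.47), as against 37 of 78 sequences of 21 nt (median -0.06) and 49 of 129 of 24 nt (median -0.24). With clean reads as library size, 70 of the 129 sequences of 24 nt were positive. Of the first bases, U started 96.8% of the 21 nt reads in B-toxic and 96.5% in control leaves (0.32 points, 0.18 to 0.46), and A started 66.4% of the 24 nt reads in B-toxic and 67.3% in control leaves (-0.99 points, -2.05 to 0.06).

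**Figure D3:**
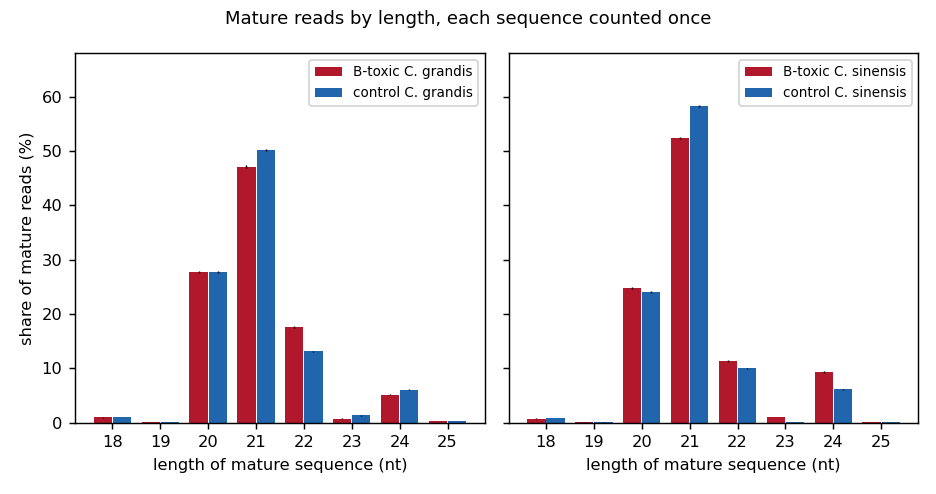
Shares of mature reads (%) by length of the mature sequence (nt) are plotted for *C. grandis* (left) and *C. sinensis* (right), B-toxic in red and control in blue, with exact binomial 95% intervals that are barely wider than the bar tops. The 22 nt bars of *C. grandis* are at 17.6% in B-toxic and 13.2% in control leaves.

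Grouped by the roles of their known targets, the miRNA families mostly stayed within a ratio of 2. Members were taken by their homology label. Some do not carry the seed of the main form, such as osa-miR319a-3p with CUGGAUG beside UUGGACU in ppt-miR319a. Whether such members, or those from the other arm, have the targets of the family was not tested. The sulfate list (miR395) had 5 sequences, of which 1 rose and none fell (20% called, beside 6.9% of all sequences tested and 3.07% called higher). Their summed reads were 373 in B-toxic and 190 in control leaves, a log2 ratio of 1.13 (0.88 to 1.39). The rise was that of miR395a. The 5p form zma-miR395m-5p had 42 reads in B-toxic and 33 in control leaves (log2 ratio 0.51, -0.18 to 1.21), and the 24 nt tae-miR395b had 90 in B-toxic and 99 in control leaves (0.02). The remaining 2 members had at most 11 reads in a library. Relative to miR395a within the same library, tae-miR395b was lower by a log2 odds ratio of -2.38 (-3.04 to -1.75), a value that does not depend on the scaling.

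The copper and laccase list (miR397, miR398, miR408, miR857) had 7 sequences, of which 1, miR397a, rose and none fell (14.3% called, beside 6.9% of all sequences). Only 2 of the 7 had at least 20 reads. The other, ppt-miR408b, which targets mRNAs of copper proteins, had 8 reads in B-toxic and 13 in control leaves (log2 ratio -0.54, -2.02 to 0.84), an interval that spans a fall and a rise. The list's summed log2 ratio was 1.26 (0.72 to 1.82).

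The phosphate list (miR399, miR827, miR2111) had 4 sequences, of which 1 fell (25% called, beside 6.9% of all sequences and 3.83% called lower). miR2111a, which in Arabidopsis targets an F-box mRNA and moves from shoot to root when phosphate is short, had 8 reads in B-toxic and 30 in control leaves (log2 ratio -1.75, -3.08 to -0.59, FDR 0.00736). It was not called under the other 3 scalings. ath-miR827, which targets SPX-domain mRNAs, had 52 reads in B-toxic and 99 in control leaves (log2 ratio -0.77, FDR 0.012). The 2 sequences labelled bdi-miR827-5p had 125 reads in B-toxic and 139 in control leaves (0.01), and 17 in B-toxic and 7 in control leaves (1.44, FDR 0.104).

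The auxin list (miR160, miR167, miR390, miR393) had 9 sequences, of which none rose and 1 fell (11.1% called, beside 6.9% of all sequences), and a summed log2 ratio of 0.37 (0.35 to 0.40). Its forms of miR167, a regulator of the auxin response factors ARF6 and ARF8 in Arabidopsis, had log2 ratios of opposite sign under all 4 scalings. The leading 22 nt form had 30040 reads (115501 RPM) in B-toxic and 24182 reads (83228 RPM) in control leaves, a log2 ratio of 0.47 (0.45 to 0.50) that was under the ratio limit. miR167a, which differs from the leading form by G21U (from the leading form to miR167a, counted from the 5′ end), had 743 reads (2857 RPM) in B-toxic and 1753 reads (6033 RPM) in control leaves. It fell by 1.08 on the log2 scale (FDR 3.42e-69), a call that was lost under the other 3 scalings, with log2 ratios of -0.91 to -0.78. The 20 nt form, with the first 20 bases of both, had 522 reads in B-toxic and 1009 in control leaves (-0.79).

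Within the library, the odds of the leading form against miR167a were higher in B-toxic leaves by a log2 ratio of 1.55 (1.42 to 1.68). The leading form made up 96.0% (95.7 to 96.2%) of miR167 reads in B-toxic and 89.7% (89.4 to 90.1%) in control leaves. In *C. sinensis* it made up 95.5% in B-toxic and 91.5% in control leaves.

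The 3 forms of miR160, which targets ARF10, ARF16 and ARF17 in Arabidopsis, share the first 19 bases. miR160a had 144 reads in B-toxic and 95 in control leaves (log2 ratio 0.76, 0.38 to 1.15), and the least abundant form, A21G to miR160a at its last base, had 62 in B-toxic and 44 in control leaves (0.65, 0.07 to 1.25). The leading form had 420 reads in B-toxic and 450 in control leaves (0.06, -0.14 to 0.26). The leading form thus held 67.1% (63.3 to 70.8%) of miR160 reads in B-toxic and 76.4% (72.8 to 79.8%) in control leaves. Against it in the same library, miR160a had a log2 odds ratio of 0.70 (0.27 to 1.14). The least abundant form had 0.59 (-0.02 to 1.22), an interval that spans 0. ptc-miR393a-3p had 13 reads in B-toxic and 17 in control leaves, too few to show a difference.

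The list of SPL and AP2 regulators (miR156, miR157, miR172) had 7 sequences and none was called. miR156 and miR157 repress SPL transcription factors and keep shoots juvenile. The main form of ath-miR157a had 3921 reads in B-toxic and 3780 in control leaves (log2 ratio 0.21, 0.15 to 0.28), and that of ath-miR156a 3225 in B-toxic and 3402 in control leaves (0.08). These 2 differ only in length, by 1 base at the 5′ end. A minor miR157 form, at scaffold_2_326223, had 41 reads in B-toxic and 90 in control leaves (-0.97, FDR 0.0026), and a minor miR156 form, at scaffold_1_49268, had 163 in B-toxic and 114 in control leaves (0.68, FDR 0.00108). Both were under the ratio limit.

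The leaf development list (miR159, miR164, miR165, miR166, miR170, miR171, miR319, miR394 and miR396, which target GAMYB, NAC, HD-ZIP III, GRAS, TCP, F-box and GRF mRNAs) had 27 sequences, of which 1 rose and 1 fell (7.41% called, close to the 6.9% of all sequences). Of its 16 members with at least 20 reads, 13 had a negative log2 ratio, with a median of -0.31, beside 145 of 264 and a median of -0.12 over all sequences. With clean reads as library size 8 of the 16 were negative, and with TMM or DESeq2's size factors 9.

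Its most abundant member was the sequence labelled ath-miR165a, with 34103 reads (131123 RPM) in B-toxic and 45011 reads (154917 RPM) in control leaves. The log2 ratio was -0.24 (-0.26 to -0.22), and 0.05 with clean reads as library size. miR165 limits HD-ZIP III factors to the upper leaf side. The label was taken as listed, and miR165 and miR166 were not told apart by sequence. The reads under this label, here and in the family sums, may therefore be those of miR166. The TCP regulator ppt-miR319a had 3393 reads (13046 RPM) in B-toxic and 5890 reads (20272 RPM) in control leaves (-0.64, -0.70 to -0.57), and a second form, miR319a, had 113 in B-toxic and 196 in control leaves (-0.63). Both forms kept a negative value under all 4 scalings, and their odds against each other differed between the libraries by a log2 ratio of 0.0012 (-0.35 to 0.35). ath-miR394a, which targets the F-box mRNA LCR, had 1092 reads in B-toxic and 1595 in control leaves (-0.39, -0.50 to -0.27). The GRF regulator ath-miR396a had 9174 reads in B-toxic and 11372 in control leaves (-0.15), a value above 0 under the other 3 scalings.

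Members of miR396 from the 3p arm had positive ratios. ptc-miR396e-3p had 407 reads in B-toxic and 330 in control leaves (log2 ratio 0.46, 0.25 to 0.68), and the called miR396g 25 in B-toxic and 8 in control leaves (1.80, 0.61 to 3.16). Against ath-miR396a in the same library, their log2 odds ratios were 0.61 (0.40 to 0.83) and 1.95 (0.76 to 3.31). The GRAS regulators labelled ath-miR171b had 142 and 118 reads in B-toxic leaves, against 165 and 175 reads in control leaves, and ath-miR170 had 32 in B-toxic and 63 in control leaves. None of them was called.

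The silencing list (miR162, miR168, miR403) had 3 sequences, all labelled miR403, and none was called. miR403 targets AGO2 mRNA in Arabidopsis. Its leading form had 4076 reads (15672 RPM) in B-toxic and 7039 reads (24227 RPM) in control leaves, a log2 ratio of -0.63 (-0.68 to -0.57). The minor form, C20U from the leading one, had 115 reads in B-toxic and 192 in control leaves (-0.58, -0.93 to -0.24). Both were negative under all 4 scalings, at -0.33 for the family with clean reads as library size. Of the disease resistance list, with csi-miR482c, csi-miR482b and other regulators of NBS-LRR mRNAs, none of 5 sequences was called, and the summed log2 ratio was 0.20 (0.12 to 0.28). miR858b was the sole sequence of the MYB list (miR828, miR858).

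**Figure D4:**
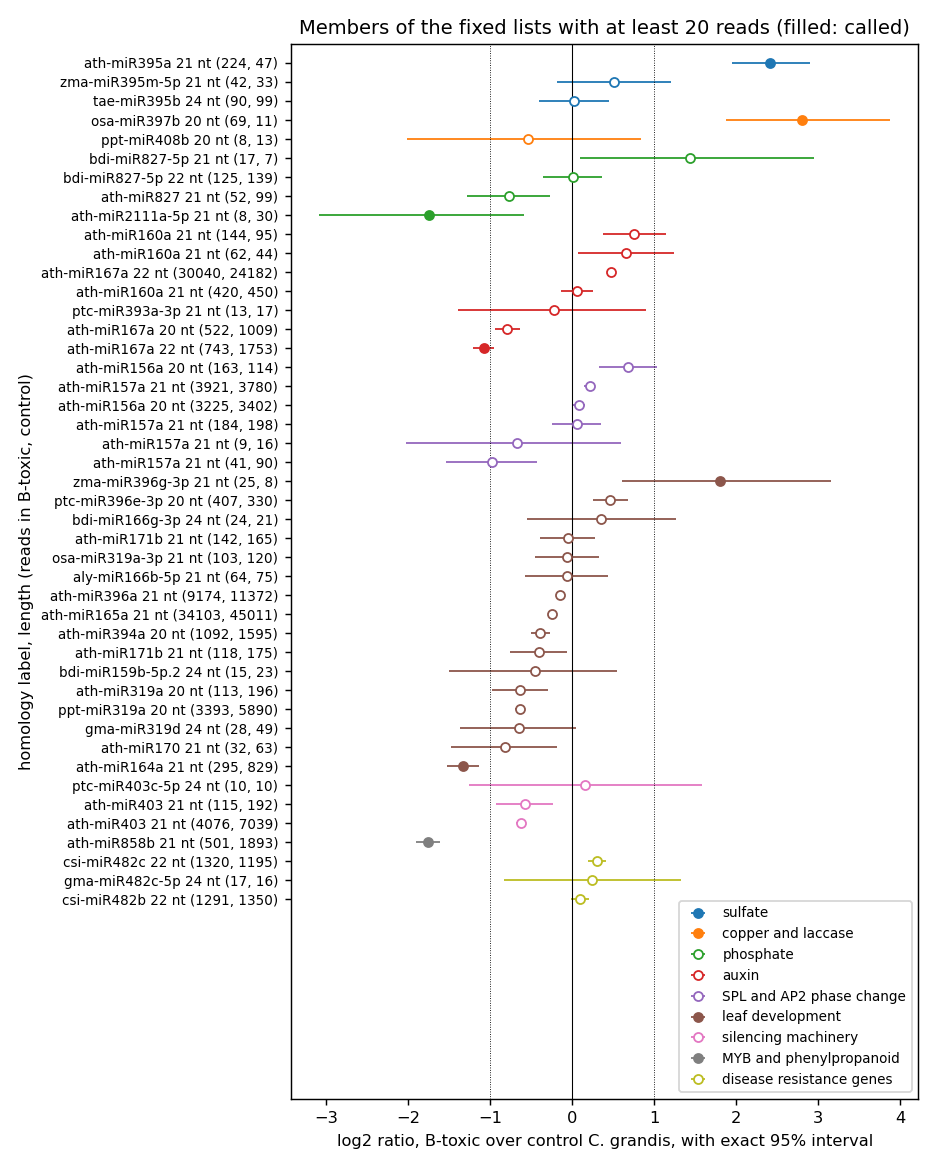
The log2 ratio of B-toxic over control reads (horizontal axis) with its exact 95% interval is plotted for each member of the target lists with at least 20 reads, coloured by list, with the reads of both libraries in the row labels (B-toxic first) and filled points for called sequences. miR395a and miR397a stand apart on the right, and miR858b and miR2111a on the left.

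Summed over homology labels, 191 families had reads and 49 of them had at least 100. Of these 49, 12 had an interval above 0 and 22 an interval below 0, and the numbers were 17 and 11 with clean reads as library size and 16 and 18 with the other scalings. miR395 had a ratio of at least 2. Ratios of 0.5 or less were found for 5 families, namely miR858, miR164, miR473, miR6232 and miR5785. With TMM or DESeq2's size factors 3 of them remained (miR858, miR164 and miR5785), and with clean reads 2 (miR858 and miR164). The summed miR164 reads were 298 in B-toxic and 838 in control leaves (log2 ratio -1.33, -1.53 to -1.14), and those of miR473 were 304 in B-toxic and 727 in control leaves (-1.10, -1.30 to -0.90). Besides miR473a, the second form, ptc-miR473a-5p, had 190 reads in B-toxic and 395 in control leaves.

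Of the 3 families with the most reads, miR165 and miR167 are described above, and miR908 had 53902 reads (20.7%) in B-toxic and 58492 (20.1%) in control leaves, a log2 ratio of 0.04 (0.02 to 0.06). The 5 sequences labelled mdm-miR171o, which do not carry the seed UGAGCCG of the ath-miR171b sequences, had 9538 reads in B-toxic and 9629 in control leaves (0.15, 0.11 to 0.19), and none was called. Whether these 5 are miRNAs or pieces of another RNA was not tested. miR6468 had 2377 reads in B-toxic and 1813 in control leaves (0.55, 0.46 to 0.64), positive under all 4 scalings. miR1098 had 626 reads in B-toxic and 464 in control leaves (0.59, 0.42 to 0.77).

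**Figure D5:**
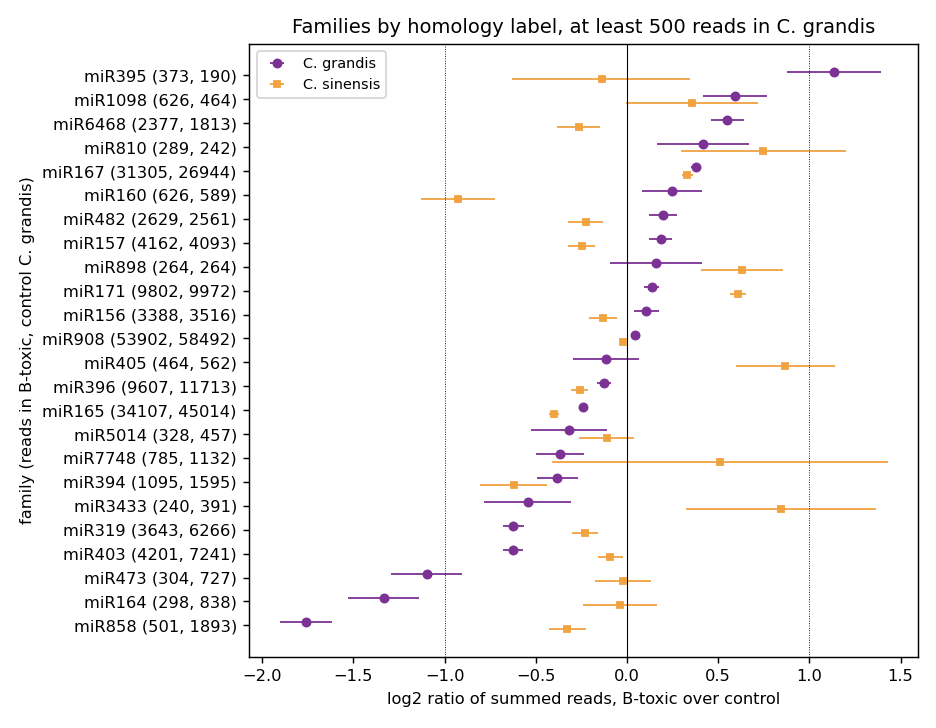
The log2 ratio of summed reads, B-toxic over control, with exact 95% intervals is plotted for each family with at least 500 reads in *C. grandis*, with circles for *C. grandis*, squares for *C. sinensis* and *C. grandis* reads in the row labels (B-toxic first). miR858, miR164 and miR473 lie below -1 in *C. grandis*, whereas their *C. sinensis* values lie between -0.33 and -0.02.

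Among sequences with at least 20 reads, there were 9 pairs in which 1 sequence occurred within a listed precursor of the other. Partners were listed under separate loci, so that their reads need not come from 1 precursor. The interval of the log2 odds between the partners left out 0 for 4 pairs and spanned 0 for 5. ci-miRN19 had 116 reads in B-toxic and 51 in control leaves (log2 ratio 1.35, 0.86 to 1.85). Its partner, the sequence of scaffold_10_1542597, had 2352 in B-toxic and 2419 in control leaves (0.12). That sequence was listed at 10 loci with unequal counts, and its reads cannot be assigned to the precursor shared with ci-miRN19. ci-miRN27 had 60 reads in B-toxic and 24 in control leaves (1.48). Its partner at scaffold_8_1287840, listed at 2 loci, had 1089 in B-toxic and 873 in control leaves (0.48). ci-miRN32 had 8 reads in B-toxic and 33 in control leaves (-1.88), whereas its partner at scaffold_5_790941 had 16 in B-toxic and 11 in control leaves (0.70, -0.50 to 1.95). The log2 odds of that partner over ci-miRN32 were higher in B-toxic leaves by 2.54 (0.84 to 4.37).

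The B response of *C. grandis* was set against that of *C. sinensis*, with 1 B-toxic and 1 control library at the same boric acid levels. The ratio differed between the species for 63 of 466 sequences with reads in both (13.5%, exact conditional test, FDR below 0.01), and for 45 with each of the other 3 scalings, 42 of which were among the 63. Of the 36 sequences called in *C. grandis*, 33 had reads in both species and 15 of these differed, 12 of them also with each of the other scalings. Among the called ones with a label, miR858b had the smallest FDR, at a log2 ratio of -1.76 in *C. grandis* and -0.33 in *C. sinensis* (FDR of the species difference 1.27e-60). miR164a was at -1.33 in *C. grandis* and -0.03 in *C. sinensis* (FDR 1.76e-18), and ci-miRN4 at -2.19 in *C. grandis* and 1.81 in *C. sinensis* (FDR 1.28e-65). miR395a was at 2.41 in *C. grandis*, but had 3 reads in B-toxic and 13 in control *C. sinensis* leaves (FDR 2.31e-05). ci-miRN24a had 3 reads in B-toxic and 21 in control *C. sinensis* leaves (FDR 1.78e-18). ci-miRN13 had 1 read in B-toxic and 2 in control *C. sinensis* leaves, and the FDR of its difference, 0.0396, was above the limit. For miR397a, with 2 reads in B-toxic and 0 in control *C. sinensis* leaves, a difference was not detectable at this depth.

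By length, the 24 nt share of B-toxic minus control leaves was -0.93 points in *C. grandis* and 3.17 points in *C. sinensis*. The 22 nt share was higher in B-toxic leaves of both, by 4.45 points in *C. grandis* and 1.31 points in *C. sinensis*. miR167 was also alike in direction, with summed log2 ratios of 0.38 (0.35 to 0.40) in *C. grandis* and 0.33 (0.30 to 0.36) in *C. sinensis*. For miR160 the intervals lay on opposite sides of 0, at 0.25 (0.08 to 0.41) in *C. grandis* and -0.93 (-1.13 to -0.72) in *C. sinensis*. The same held for other families, among them miR6468, miR482, miR157, miR156 and miR908. With the signs reversed it held for families such as miR3433, miR1028, miR7528 and miR7756.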

How the data were processed

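Small RNA libraries were sequenced on an Illumina HiSeq. Per the labels and the study's methods, reads were trimmed of adaptors and filtered for quality and against other RNA classes, known miRNAs were sought in miRBase 21, and precursors were predicted with MTide on the *C. clementina* genome (version 1.0). The authors deposited raw read counts of each mature sequence per locus and library. The sources used here give neither the MTide version nor how reads with several loci were assigned. The labels and the methods name different Illumina kits.

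Because 69 of 579 sequences had several loci, 39 of them with equal counts, each sequence was entered once, with the highest count per library. Over all loci the totals would be 325441 (B-toxic) and 373890 (control). Folding energies were computed with RNAfold 2.7.2. Precursor and mature sequences were used as listed, without a genome, and locus names are the authors' identifiers, not coordinates.

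Sequences were tested by two-sided Fisher's exact tests (scipy 1.17.1) with Benjamini-Hochberg adjustment over 522 sequences. A call needed a ratio of at least 2 and an FDR below 0.01, the limits the study set. Intervals of ratios are exact conditional, those of shares exact binomial (Clopper-Pearson) and those of share differences Newcombe 95% intervals. PCR copies are not told apart. Alternatives were other tests of 2 libraries, edgeR 4.0.16 (TMM, and its exact test at coefficients of variation set to 0.2 and 0.4), DESeq2 1.42.0 size factors, clean reads as library size, every locus, and other limits. The tests were checked on simulated counts.

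Named were the 3 most abundant sequences of 20, 21, 22 and 24 nt, the 12 higher and 12 lower called sequences with the largest ratios and at least 20 reads, the list members with at least 20 reads, and close relatives of these. Other called sequences, and those near the limits or driving a share or family, were named after their values were seen. Members, lists and tests were chosen with earlier results of these data known.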

Additional observations from a re-analysis of the deposited data

Results flagged for a closer look

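For 41 named sequences, the B-toxic to control ratio differed between *C. grandis* and *C. sinensis* by the exact conditional test (FDR below 0.01), out of 63 of 466 in all. With clean reads as library size, TMM or DESeq2's size factors, 34 of the 41 still differed. Those that did not were miR167a, ci-miRN7, ci-miRN2, ppt-miR319a, miR2622.1a, scaffold_2_309694 and the mdm-miR171o form of scaffold_2_175435. Each value below is the FDR of that difference. It covers counting error between single libraries, and a difference between plants was not tested.

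Of the sequences called in *C. grandis*, those that rose and differed were ci-miRN24a (1.78e-18), miR395a (2.31e-05), ci-miRN15 (0.00114) and ci-miRN19 (0.00621). Those that fell and differed were ci-miRN4 (1.28e-65), miR858b (1.27e-60), miR164a (1.76e-18), miR6232a (1.13e-08), miR7528 (2.62e-08), miR473a (1.07e-06), ci-miRN8 (1.78e-06), miR167a (7.2e-05), scaffold_2_209091 (0.000203), ci-miRN7 (0.00841) and ci-miRN2 (0.00948).

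Of the sequences under the limits in *C. grandis*, all 3 miR160 forms had a positive log2 ratio there and a negative one in *C. sinensis* (miR160a 9.84e-08, scaffold_6_1021446 4.41e-09, scaffold_4_632152 0.00735). So did ci-miRN30a (2.78e-05), ptc-miR6468-5p (1.69e-28), scaffold_2_326556 (1.32e-68), csi-miR482c (1.3e-08), csi-miR482b (0.000674), the leading miR157 form (6.84e-21), the leading miR156 form (0.000608), scaffold_2_271215 (2.75e-26) and cre-miR908.3 (9.58e-06). The leading miR167 form (0.000575) and the mdm-miR171o sequence of scaffold_2_217057 (1.62e-52) were positive in both species.

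ci-miRN3a (below 1e-300), ptc-miR473a-5p (2.47e-11), miR2622.1a (0.00567), the 24 nt sequences scaffold_8_1263994 (9.27e-69), scaffold_6_1070318 (1.51e-21), miR319d (0.000101) and scaffold_2_309694 (0.00567), and the mdm-miR171o form of scaffold_2_175435 (0.00136), were negative in *C. grandis* and positive in *C. sinensis*. ath-miR403 (1.88e-32), ppt-miR319a (1.17e-15), ath-miR165a (1.25e-17) and ath-miR396a (7.57e-05) were negative in both. The first 2 were closer to 0 in *C. sinensis* and the last 2 in *C. grandis*.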

How the results depend on the processing

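No paired analysis was possible because each condition had 1 library, and for the same reason none could be left out. Without replicates the spread between plants was not measured. With edgeR's exact test and an assumed coefficient of variation of 0.2 the calls numbered 8 (4 higher, 4 lower), and with 0.4 they numbered 3 (2 higher, 1 lower: ci-miRN13, ci-miRN24a and ci-miRN5). Those called at 0.2 also included miR397a, miR395a, miR858b, ci-miRN4 and ci-miRN8. Without the ratio limit there were 79 calls (36 higher, 43 lower), and with a limit of 3 there were 20 (10 higher, 10 lower). With clean reads as library size there were 26 higher and 7 lower calls, and 23 of the 36 sequences stayed called. With TMM there were 10 lower calls and with DESeq2's size factors 10, and 26 of the 36 stayed called. The chi-square test kept 35, the two-sided Audic-Claverie test 34, every locus as listed 35 and a minimum of 10 reads all 36. Families with an interval below 0 numbered 11 with clean reads. Sequences whose ratio differed from *C. sinensis* numbered 45 with each of the other scalings, against 63.

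Without the sequence with the most reads, the share differences in points were 0.512 (20 nt), -4.68 (21 nt), 5.92 (22 nt) and -1.08 (24 nt). With every locus as listed they were -2.32 (21 nt), 3.85 (22 nt) and 0.0191 (24 nt). Without the most abundant sequence of each length, an alternative chosen after seeing the data, they were -0.641 (20 nt), -4.68 (21 nt), 1.57 (22 nt) and -0.505 (24 nt).

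Sequences near a ratio of 1 turned from negative to positive log2 ratios, none of them called. With clean reads, TMM and DESeq2's size factors in turn these were ath-miR171b of scaffold_1_74299 (0.24, 0.11, 0.12), osa-miR319a-3p (0.23, 0.11, 0.11), aly-miR166b-5p (0.23, 0.10, 0.10), scaffold_6_1070318 (0.189, 0.0652, 0.0681) and ath-miR396a (0.144, 0.0199, 0.0228). With clean reads alone they were ptc-miR393a-3p (0.067) and ath-miR165a (0.0536). Each scaling adds 1 constant to all log2 ratios, which turned these values.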
